A study of Mus musculus with 4 samples.

Results

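Regulators of G-protein signalling (RGS proteins) were followed here in macrophages without MyD88, an adaptor protein that most Toll-like receptors need to signal. The members were 9 genes, Rgs1, Rgs2, Rgs3, Rgs10, Rgs12, Rgs14, Rgs16, Rgs18 and Rgs19, taken from 18193 genes with a probe set of their own on the array. They were read at every probe set whose only gene symbol in the platform annotation is that of a member, which gave 21 probe sets of 45037. A probe set is a group of short oligonucleotides aimed at 1 transcript. Of the 21, 17 reached the 40th percentile of the array on at least 2 of the 4 arrays and were tested. The other 4 lay below that level and are given by their values alone.

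All 4 arrays came from MyD88 -/- mouse macrophages, grown from bone marrow for 6 days with recombinant human M-CSF, which turns marrow precursors into macrophages. Unstimulated cells (0 min) gave 2 arrays, whose titles carry the letters LPS and PIC. Cells given zymosan at 100 ug/ml for 120 min gave the other 2. Zymosan is a yeast cell wall particle that Toll-like receptor 2 and the lectin Dectin-1 recognize. The comparison asks which transcripts differed after zymosan in cells without MyD88, and no wild-type array was analysed here. The labels give no strain or age. Nor do they say that the 2 arrays of a group stem from different animals or dishes, so a p-value here reflects only how these arrays vary, and that variation may be technical.

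Receptors with 7 membrane passes, among them those for chemokines, complement peptides, lipids and nucleotides, act by loading GTP onto the alpha subunit of a heterotrimeric G protein. RGS proteins bind the active alpha subunit and speed up its hydrolysis of GTP, which ends the signal. In leukocytes they are best known for limiting the response to chemoattractants. The members fall into 3 subfamilies. Rgs1, Rgs2, Rgs3, Rgs16 and Rgs18 belong to the R4 subfamily, most of which are short proteins built around the RGS domain. Rgs10, Rgs12 and Rgs14 form the R12 subfamily, and Rgs19, also called GAIP, belongs to the RZ subfamily.

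A RefSeq promoter window (GRCm38.p6, 250 bases before to 50 bases after a transcript start) was given for 6 of the 9 members, namely Rgs2, Rgs3, Rgs10, Rgs12, Rgs16 and Rgs19, in 10 windows. The 250 bases before the start are shown for Rgs2, which fell at 2 of its 3 tested probe sets, and for Rgs16, of whose 3 probe sets 2 lay below the filter level. The Rgs2 stretch lies at chr1:144004150-144004399 on the minus strand and has 72.4% G and C, and that of Rgs16 lies at chr1:153740103-153740352 on the plus strand with 66.4%. Both are written 5′ to 3′ as they read toward the start.

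Rgs2: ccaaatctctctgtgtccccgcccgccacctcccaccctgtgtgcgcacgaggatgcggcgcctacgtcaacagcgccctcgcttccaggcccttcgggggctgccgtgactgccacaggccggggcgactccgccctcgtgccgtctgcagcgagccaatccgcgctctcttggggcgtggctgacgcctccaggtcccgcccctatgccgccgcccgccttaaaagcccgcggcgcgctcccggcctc

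Rgs16: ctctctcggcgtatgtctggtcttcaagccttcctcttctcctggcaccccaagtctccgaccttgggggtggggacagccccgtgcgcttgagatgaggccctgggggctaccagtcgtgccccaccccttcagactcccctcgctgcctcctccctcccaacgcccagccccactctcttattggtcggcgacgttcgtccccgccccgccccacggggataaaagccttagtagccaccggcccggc

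These windows were searched on both strands for GGNNTTTCC (NF-kB), TGACGTCA (CRE), TGANTCA (AP-1), GCGTGGGCG and GCGGGGGCG (EGR), TTTCCA (NFAT) and TTCNNTTTC (ISRE). The first and the NFAT motif can overlap, since both hold TTTCC. No letters of the Rgs2 or Rgs16 stretch match, so none is in capitals. Of the 10 member windows, 1 of Rgs12 held the AP-1 motif, at position -22 from the start, and 1 of Rgs19 held the NF-kB motif, at position -187. Among all 32851 windows, 7.81% held the AP-1 motif and 5.82% the NF-kB motif. The shares for the others were 1.79% (CRE), 0.612% and 2.91% (EGR), 21.4% (NFAT) and 8.56% (ISRE). A match describes letters only, and no match says only that these letters are not in this window.

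Array values are log2 expression values made by the authors with RMA, with medians of 4.92 to 4.94 per array. Across the 27571 tested probe sets, r was 0.989 between the unstimulated arrays and 0.995 between the zymosan arrays, against 0.964 to 0.969 between groups. The unstimulated arrays were scanned 16 days apart, and both zymosan arrays on 1 later day, 153 days from the earliest, with a different operator and project name, so that day, operator and zymosan cannot be told apart in any result. Myd88 itself read 8.72 and 8.78 on the unstimulated arrays and 8.37 and 8.40 after zymosan. This checks no label, since all arrays are labelled deficient and the place of its probes relative to the deletion is not known here. The macrophage markers Adgre1, Csf1r, Cd68, Fcgr1, Lyz2, Mpeg1, Cd14 and Mertk all passed the filter, and 3 of these 8 (Adgre1, Cd14 and Fcgr1) were lower after zymosan. The log2 of their summed level was 15.69 and 15.76 unstimulated and 15.54 and 15.56 after zymosan. All 10 granulocyte markers measured were higher on both zymosan arrays than on both unstimulated arrays, 9 of them past the threshold, and the log2 of their summed level was 10.09 and 10.16 unstimulated and 12.29 and 12.35 after zymosan. Their part in the RGS results was not tested. In bulk RNA, fewer cells of a type and less RNA per cell cannot be told apart.

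Zymosan was accompanied by modest falls at 1 or more probe sets of 4 of the 9 RGS genes and a modest rise of 1 gene. With each gene read only at its probe set of highest mean, 3 of the 9 were called lower and 1 higher. Among all genes read so, 5.64% were lower and 8.36% higher. Of the 17 tested probe sets, 5 fell, 1 rose and 11 did not pass limma's test (adjusted p under 0.05 over all 27571). The background is 7.45% of all tested probe sets lower and 8.48% higher. By gene, Rgs2, Rgs10, Rgs14 and Rgs18 fell at 1 or more probe sets and Rgs1 rose, while no probe set of Rgs3, Rgs12, Rgs16 or Rgs19 passed. The called changes were alike in size, from 1.42-fold to 1.54-fold. The arrays of the groups did not overlap at 13 of the 17, 12 of them lower after zymosan, but this held for 60.6% of all tested probe sets. Without zymosan replicate 1 or zymosan replicate 2, limma called 0 members, with 7 and 8 of the 17 at an unadjusted p under 0.05, as were 20.9% and 19.7% of all tested probe sets. With the scan day as a random block it also called 0, with 7 at an unadjusted p under 0.05 against 21.7% of all.

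**Figure D1:**
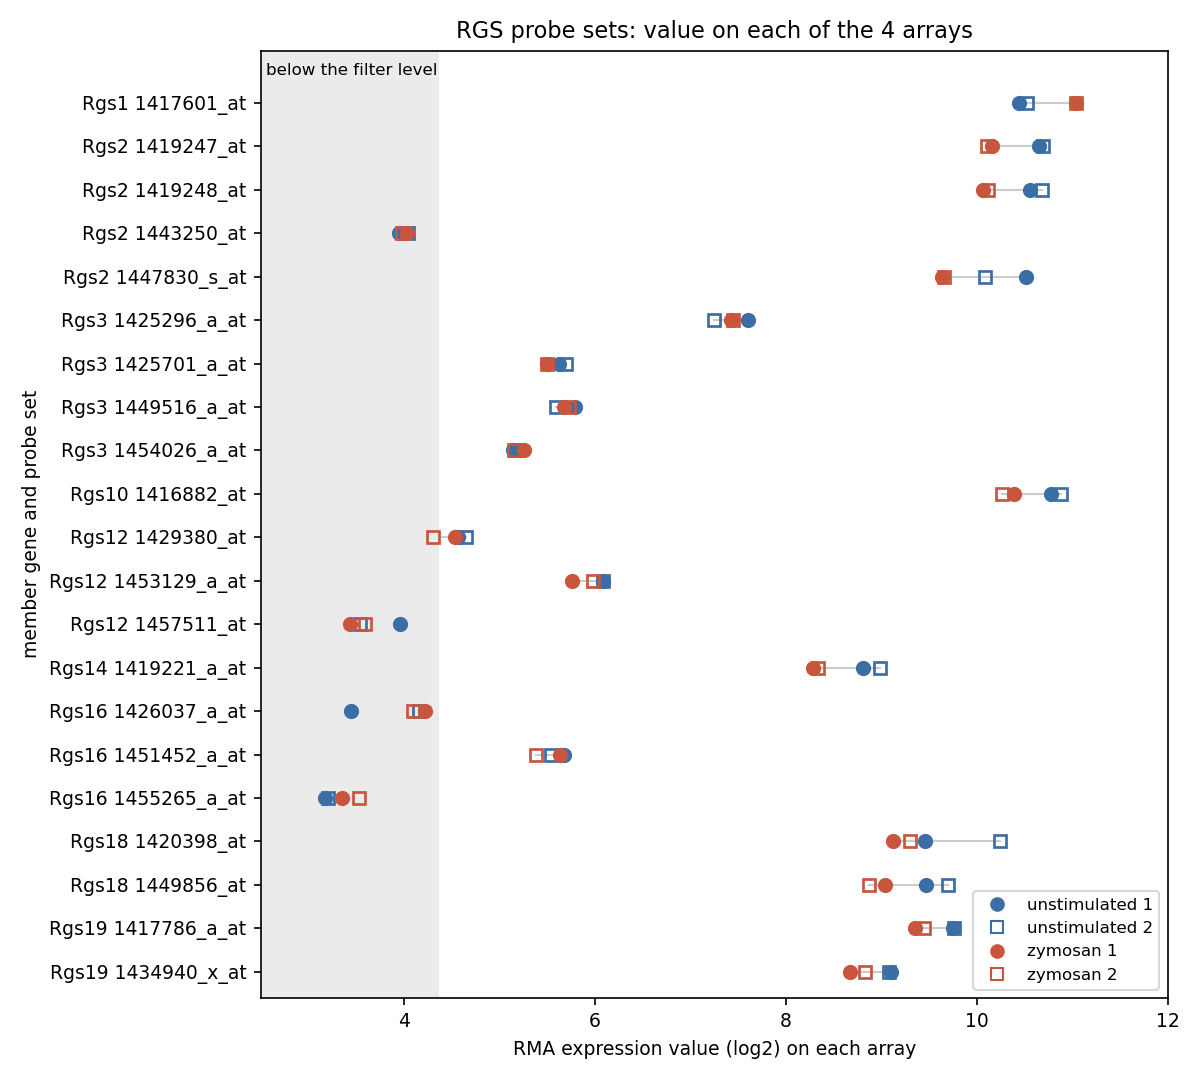
Values of all 21 member probe sets (rows) on the log2 scale of the deposited RMA values (x axis), 1 point per array, with unstimulated arrays in blue and zymosan arrays in red. Values in the grey band, left of 4.36, are below the filter level; Rgs1 has its zymosan points at 11.04, to the right of its unstimulated points at 10.45 and 10.53. Among the 17 tested probe sets it is the only one with both zymosan points on the right, and Rgs16 1455265_a_at, below the filter level, also has them there.

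Rgs1 was the member that rose. It encodes an R4 protein abundant in activated lymphocytes, where it restrains migration toward chemokines. Its only probe set, 1417601_at, read 10.45 and 10.53 on the unstimulated arrays and 11.04 on each zymosan array. Both zymosan arrays lay above both unstimulated ones, and the gap between groups was far wider than that within them. The log2 difference was 0.55 (SE 0.10), or 1.47-fold (limma, adjusted p = 0.0236). It lay between 0.51 and 0.59 when any 1 array was omitted. Without zymosan replicate 1 or zymosan replicate 2 the adjusted p was 0.154 and 0.169, and with the scan day as a random block 0.0897, so the call was lost each time at a like difference.

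Rgs2 fell. Its protein acts on the Gq alpha subunit more than most RGS proteins do, and it also restrains adenylyl cyclase. Probe set 1419247_at read 10.65 and 10.69 unstimulated and 10.16 and 10.10 after zymosan. Probe set 1419248_at read 10.56 and 10.68 unstimulated and 10.06 and 10.12 after zymosan. At both, the arrays of each group lay close together and those after zymosan lower. The differences were -0.54 (SE 0.10, adjusted p = 0.0243) and -0.53 (SE 0.11, adjusted p = 0.0302), or 1.46-fold and 1.44-fold lower.

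The third tested probe set of Rgs2, 1447830_s_at, read 10.51 and 10.08 unstimulated and 9.64 and 9.65 after zymosan. Its unstimulated arrays stood apart by 0.43, more than at the other probe sets of the gene, and its difference of -0.65 (SE 0.16) narrowly missed the threshold (adjusted p = 0.0501). It passed with the 60th percentile filter, quantile normalization and the intensity trend (adjusted p = 0.0391, 0.0475 and 0.0331). The value depended on the unstimulated arrays, at -0.44 (adjusted p = 0.0678) without replicate 1 and -0.87 (adjusted p = 0.0132) without replicate 2. The fourth, 1443250_at, lay between 3.94 and 4.04 on all 4 arrays, below the filter level. The 3 tested readings of Rgs2 thus gave differences between -0.65 and -0.53. The call at 1419248_at was also lost without unstimulated replicate 2 (-0.47, adjusted p = 0.0625), while 1419247_at kept its call there.

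Rgs18 is made mainly in blood-forming cells and is best known from megakaryocytes and platelets. Probe set 1449856_at read 9.47 and 9.70 unstimulated and 9.04 and 8.87 after zymosan. It fell by 0.63 on the log2 scale (SE 0.13, adjusted p = 0.0325), or 1.54-fold. Probe set 1420398_at read 9.45 and 10.24 unstimulated and 9.12 and 9.30 after zymosan. Here the second unstimulated array was high, 0.78 above the first, and the difference of -0.64 (SE 0.26) did not pass (adjusted p = 0.160).

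The reading of 1420398_at rested on that array. Its difference was -1.03 (adjusted p = 0.0113) without unstimulated replicate 1 and -0.25 (adjusted p = 0.288) without unstimulated replicate 2. At 1449856_at the same omissions gave -0.74 (adjusted p = 0.0245) and -0.51 (adjusted p = 0.0665). Of 6 megakaryocyte and platelet markers measured, Ppbp rose by 0.87, while Pf4 differed by 0.43 and the other 4 by -0.15 to 0.18, short of the threshold. The log2 of their summed level was 12.77 and 12.86 unstimulated and 13.20 and 13.27 after zymosan, and Pf4 alone read 12.70, 12.81, 13.14 and 13.22, so the sum is nearly that of 1 gene. Their part in the result was not tested.

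Rgs3 and Rgs16 complete the R4 members. Rgs3, which acts on Gi and Gq alpha subunits and has long and short forms, had 4 tested probe sets and no call. Its probe set of highest mean, 1425296_a_at, read 7.60 and 7.25 unstimulated and 7.42 and 7.44 after zymosan, so the zymosan arrays lay between the unstimulated ones. The 4 differences ran from -0.16 to 0.04, with adjusted p-values from 0.363 to 0.981. At 1425296_a_at, 1449516_a_at and 1454026_a_at the sign turned in at least 1 of the alternatives, so no direction is given for them.

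Rgs16 is an R4 member that leukocytes are known to induce on activation. Its probe set 1451452_a_at read 5.68 and 5.54 unstimulated and 5.64 and 5.39 after zymosan, and the groups overlapped. The difference was -0.10 (SE 0.13, adjusted p = 0.678) and its sign turned without zymosan replicate 2. The other probe sets of Rgs16, 1426037_a_at and 1455265_a_at, lay below the filter level on every array, between 3.44 and 4.22 and between 3.18 and 3.53. At 120 min no level of Rgs16 above the filter was thus measured at 2 of its 3 probe sets.

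Of the 3 R12 members, Rgs10 and Rgs14 were called lower, as were 5.64% of all genes at their probe set of highest mean. The R4 genes Rgs2 and Rgs18 also fell at 1 or more probe sets. Rgs10, a short protein of Gi-directed activity that microglia and macrophages express strongly, read 10.78 and 10.88 unstimulated and 10.39 and 10.26 after zymosan at its only probe set, 1416882_at. The difference was -0.51 (SE 0.11, adjusted p = 0.0366), or 1.42-fold lower. Rgs14 carries, besides its RGS domain, Ras-binding domains and a GoLoco motif, which holds inactive Gi alpha subunits in their GDP-bound state. At 1419221_a_at it read 8.80 and 8.98 unstimulated and 8.28 and 8.33 after zymosan. It fell by 0.58 on the log2 scale (SE 0.12, adjusted p = 0.0271). For both genes the groups did not overlap, and both calls were lost without unstimulated replicate 2 (adjusted p = 0.0763 and 0.0541).

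Rgs12 is the other large member with a GoLoco motif. Its probe set 1453129_a_at read 6.09 and 6.08 unstimulated and 5.76 and 5.98 after zymosan. Probe set 1429380_at read 4.56 and 4.65 unstimulated and 4.53 and 4.31 after zymosan, close to the filter level. The differences of -0.22 (adjusted p = 0.281) and -0.18 (adjusted p = 0.372) did not pass. Without zymosan replicate 1 they were -0.11 and -0.30, and without zymosan replicate 2 they were -0.33 and -0.07, so the size at both rested on single arrays. The remaining one, 1457511_at, lay between 3.44 and 3.95, below the level.

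Rgs19, of the RZ subfamily, acts on alpha subunits of the Gi class. At 1417786_a_at it read 9.76 on each unstimulated array and 9.35 and 9.44 after zymosan. At 1434940_x_at it read 9.10 and 9.08 unstimulated and 8.67 and 8.82 after zymosan. Both zymosan arrays lay below both unstimulated ones at either probe set. The differences of -0.36 (SE 0.10, adjusted p = 0.0742) and -0.34 (SE 0.11, adjusted p = 0.0960) did not pass over all tested probe sets. The first passed when the variance prior followed intensity (adjusted p = 0.0421).

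**Figure D2:**
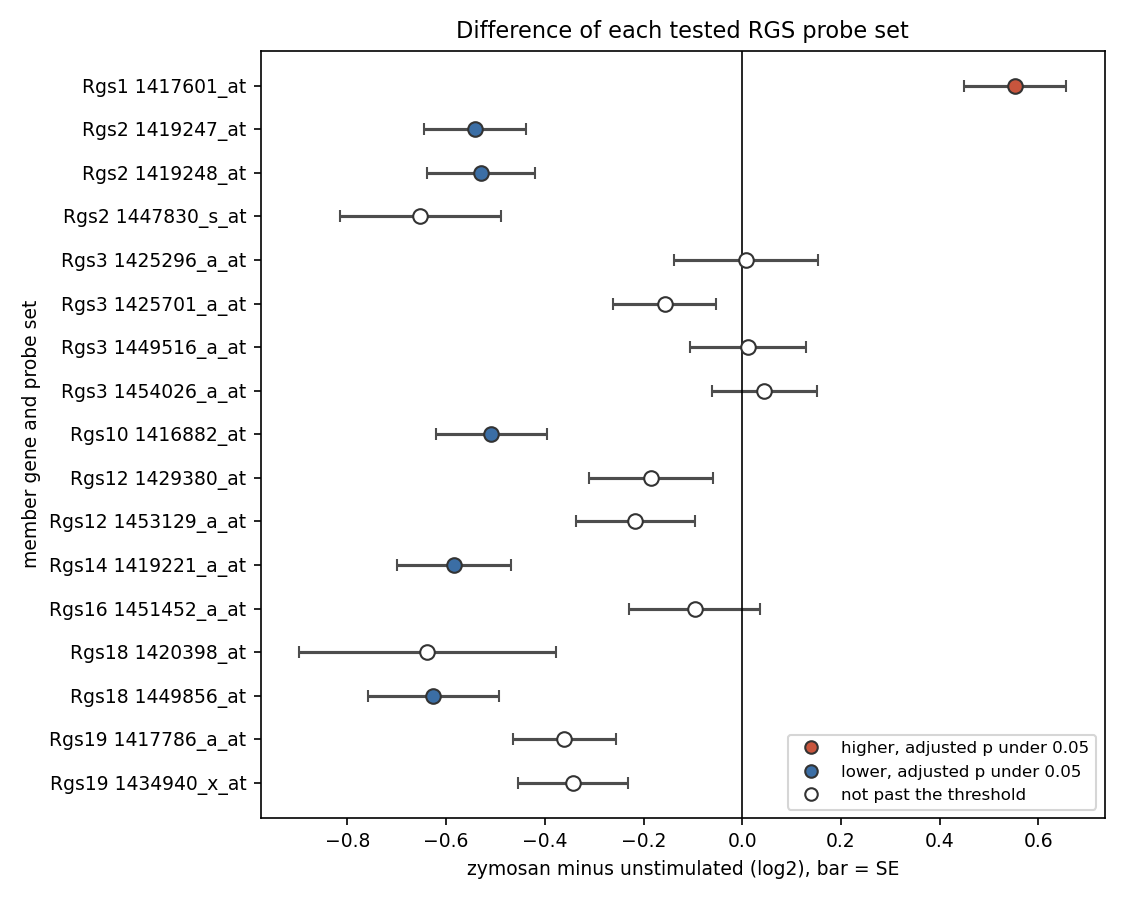
Zymosan minus unstimulated difference (x axis, log2) with its limma standard error for the 17 tested member probe sets (rows), filled red where higher, blue where lower and white where the adjusted p was 0.05 or more. Rgs1 lies at 0.55, 5 probe sets of Rgs2, Rgs10, Rgs14 and Rgs18 are called between -0.63 and -0.51, and the 4 of Rgs3 lie around 0.

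With each gene read at its probe set of highest mean, 3 of the 9 members were called lower (Rgs2, Rgs10 and Rgs14) and 1 higher (Rgs1). Among all 13222 genes read so, 5.64% were lower and 8.36% higher. The median difference of the 9 was -0.36, and that of all genes 0.00.

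Rgs1 was also read against each other member within the same array, where any scaling of a whole array cancels. The log2 ratio of Rgs1 to Rgs2, set to a mean of 0 over the unstimulated arrays, was -0.02 and 0.02 there and 1.07 and 1.12 after zymosan. The ratio to Rgs10 was 0.01 and -0.01 unstimulated and 0.999 and 1.12 after zymosan. The ratio to Rgs14 was 0.05 and -0.05 unstimulated and 1.17 and 1.11 after zymosan. All 8 ratios were higher on both zymosan arrays, by 0.54 against Rgs3 to 1.19 against Rgs18. All 8 share the rise of Rgs1 itself, and Rgs3, Rgs12, Rgs16 and Rgs19 had no called change. Rgs1 was the only member called higher, so higher ratios follow in large part from the values already given. A ratio shows unequal change and not which gene changed. With 2 arrays against 2, an exact permutation test of one ratio cannot give a 2-sided p under 0.333, so these are descriptions.

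**Figure D3:**
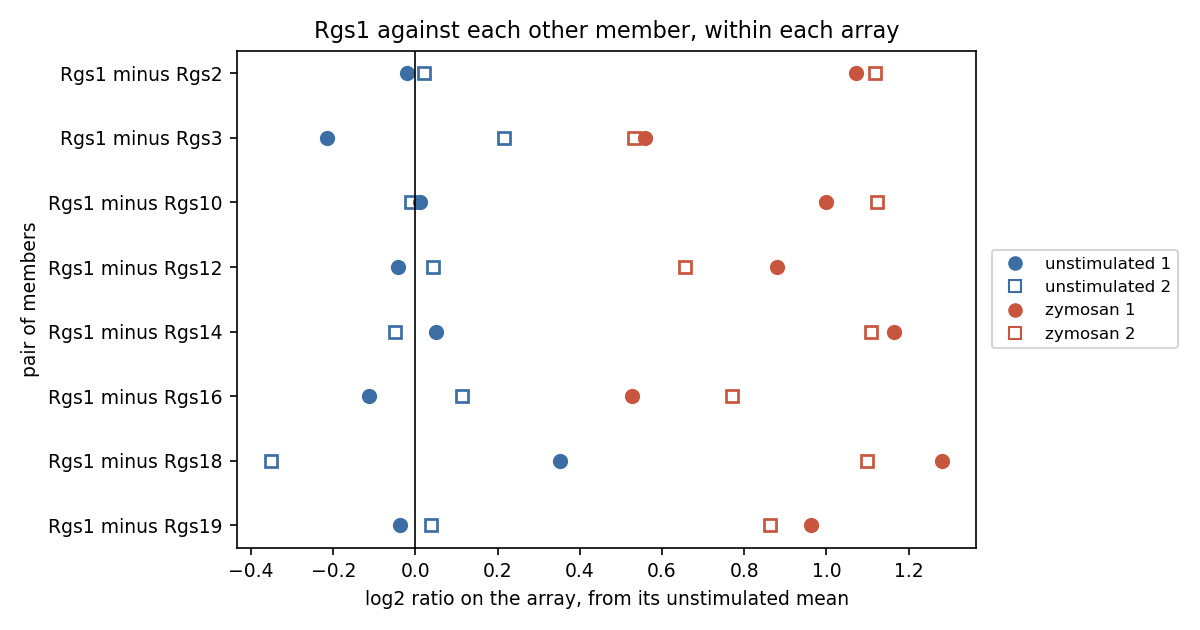
Log2 ratio of Rgs1 to each other member (rows) on the same array, after subtraction of its mean over the unstimulated arrays (x axis), 1 point per array. Unstimulated arrays (blue) lie between -0.35 and 0.35 and zymosan arrays (red) between 0.53 and 1.28, so the groups do not overlap in any of the 8 pairs. All 8 pairs share Rgs1, the only member called higher.

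The genes whose course over the 4 arrays was most like that of a member were taken by Euclidean distance of their log2 values, each less its own mean. Nearest to Rgs1 were Tmem250-ps, Pbk and Atp13a3, at distances from 0.01 to 0.03. Nearest to Rgs2 were Gkn1, Scp2 and Raver1, at 0.03 to 0.04, and nearest to Rgs16 were Siae, Cldn6 and E230016M11Rik, at 0.02 to 0.03. With 4 arrays in 2 groups, such nearness says little beyond a like difference between groups.

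The rest of the G protein cycle was read from 8 lists with 83 tested genes, of which 3 rose and 12 fell, again at the probe set of highest mean. Among all genes read so, 8.36% were higher and 5.64% lower, which is the background for each list below. Of the 15 called list genes, 9 had another tested probe set, 23 in all. At these, 12 were called the same way, 10 were not called and 1, of Gna13, was called the other way.

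No other RGS gene tested passed the threshold. Of 15 listed RGS genes and RGS-binding proteins, 12 had a probe set and 4 were tested. The differences of Rgs9 (0.12), Rgs7bp (-0.14), Rgs20 (0.06) and Rgs11 (0.06) did not pass limma's test. None had an unadjusted p under 0.05, where 29.8% of all genes did, and the intensity trend called 0 as well. Rgs4, Rgs5, Rgs6, Rgs7, Rgs8, Rgs13, Rgs17 and Rgs9bp lay below the filter level. The 9 proteins with an RGS-like domain also gave 0 calls and 0 unadjusted p-values under 0.05. Their largest differences were those of Akap10 (0.26), a kinase anchor, Arhgef12 (0.24), Snx25 (0.22) and Snx13 (0.20), both sorting nexins.

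Among 11 tested alpha subunits, 1 rose and 1 fell. Gna13 was 1.97-fold higher at its probe set of highest mean (10.58 ± 0.09 to 11.56 ± 0.01, SD, n = 2, adjusted p = 0.00661). Of its 6 other tested probe sets, 3 were called higher and 2 were not called, while 1430295_at fell by 0.47 (adjusted p = 0.0358), so the probe sets of Gna13 disagreed. Gna12, its close relative, fell by 0.82 (9.14 ± 0.40 to 8.32 ± 0.02, adjusted p = 0.0449). Its 3 other tested probe sets fell too, with differences from -2.04 at 1421026_at to -0.74 at 1450096_at, there to below the filter level. Gnai3, of the Gi class, differed by 0.46 (adjusted p = 0.0588). Gnal, the olfactory alpha subunit of the stimulatory Gs class, differed by -0.48 (adjusted p = 0.0659), to below the filter level. Of 15 beta and gamma subunits limma called 0, with 6 at an unadjusted p under 0.05, as were 29.8% of all genes. The nearest to the threshold were Gnb2 (-0.41, adjusted p = 0.0509), Gnb4 (-0.40, adjusted p = 0.0888), Gng2 (-0.31, adjusted p = 0.117) and Gng7 (-0.28, adjusted p = 0.132).

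Of 7 modulators that act on alpha subunits outside the receptor, 2 fell. Gpsm3, a GoLoco protein of leukocytes, fell by 0.48 (8.61 ± 0.02 to 8.13 ± 0.09, SD, n = 2, adjusted p = 0.0394). Ric8a, an exchange factor and chaperone of alpha subunits, fell by 0.50 (adjusted p = 0.0486), while its 3 other tested probe sets did not pass. Gpsm1 (-0.41, adjusted p = 0.0583) and Pcp2 (0.13) did not pass. Both calls were lost when either unstimulated array was left out.

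Receptor kinases and arrestins, which uncouple receptors from their G proteins, gave 1 call among 6. Arrb1, which encodes beta-arrestin 1, was 1.71-fold lower (8.66 ± 0.14 to 7.88 ± 0.16, adjusted p = 0.0190). Arrb2 differed by -1.18, with its unstimulated arrays far apart (SD 0.72), and did not pass (adjusted p = 0.0643). The kinase genes Grk3 (0.57, adjusted p = 0.0525) and Grk5 (0.58, adjusted p = 0.0578) differed upward, short of the threshold. The kinase gene Grk6, named after its values were seen, differed downward, also short of it (-0.37, adjusted p = 0.0687). Of the 6, all but Grk1 had no overlap between groups, which also held for 60.6% of all tested probe sets.

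Of 14 effectors, 1 rose and 2 fell. The adenylyl cyclase gene Adcy9 fell by 0.66 (adjusted p = 0.0171), and 2 of its 3 other tested probe sets fell as well. Adcy3, another adenylyl cyclase, rose 1.48-fold (adjusted p = 0.0244), though its 3 other tested probe sets did not pass. Pik3cg, the catalytic subunit of the phosphoinositide 3-kinase that beta and gamma subunits activate, was 1.75-fold lower (adjusted p = 0.0316). Plcb2, a phospholipase C, differed by -0.40 (adjusted p = 0.0539).

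Of 17 tested receptors that couple to Gi, 6 fell, among them receptors for chemokines, complement and lipids, and 1, Ccr1, rose. The median difference was -0.35. Cx3cr1, the fractalkine receptor, was 6.80-fold lower (8.08 ± 0.67 to 5.31 ± 0.09, SD, n = 2, adjusted p = 0.00617). C5ar1, the receptor of complement C5a, was 2.10-fold lower (adjusted p = 0.00699). At the other tested probe set of each, Cx3cr1 was 4.03-fold and C5ar1 3.5-fold lower. The cannabinoid receptor Cnr2 fell by 0.97 (adjusted p = 0.0118) and the sphingosine phosphate receptor S1pr1 fell by 0.84 (adjusted p = 0.0133). Ccr1, a chemokine receptor named after its values were seen, rose by 0.75 (adjusted p = 0.0207). Of these 17, 1 was called lower without zymosan replicate 1 and 0 without zymosan replicate 2.

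**Figure D4:**
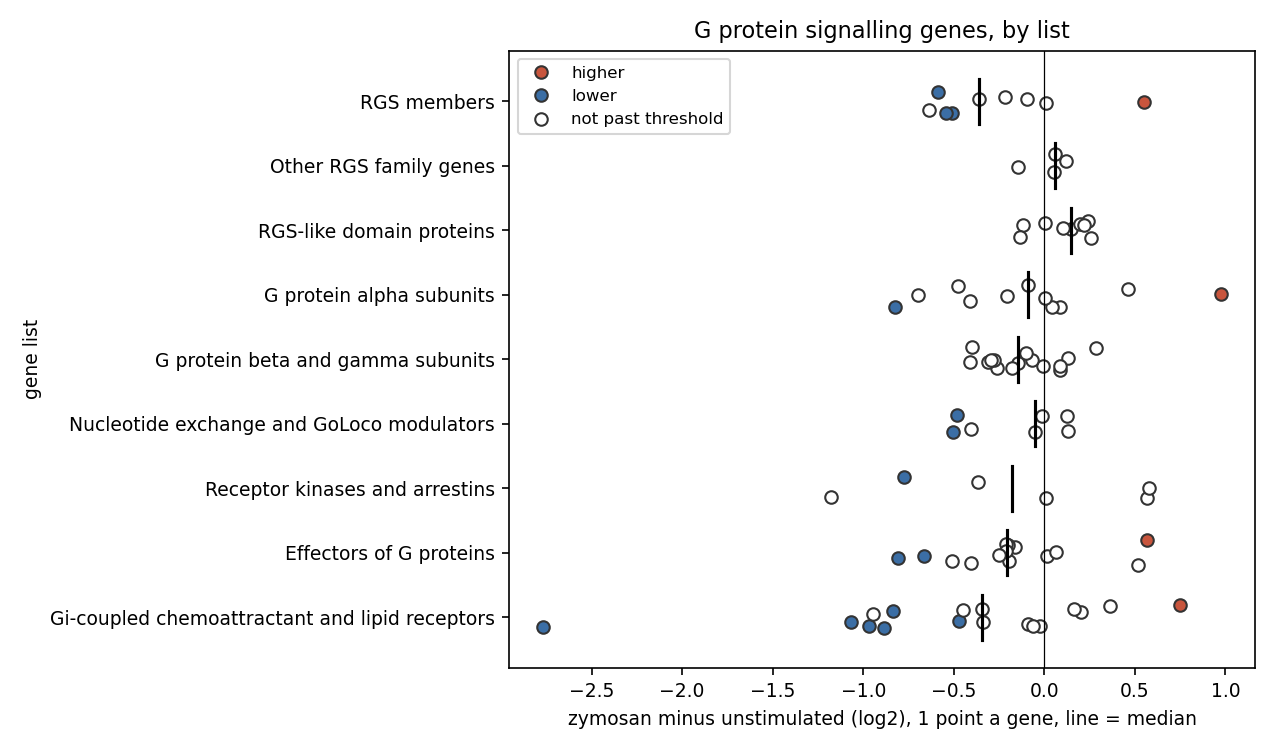
Zymosan minus unstimulated difference (x axis, log2) of each tested gene at its probe set of highest mean, by list (rows), with the list median as a line; red is called higher, blue called lower, white not called. The median of the 9 RGS members is -0.36, the Gi-coupled receptors lie lowest after it with -0.35 and reach -2.77 at Cx3cr1, and other RGS genes lie around 0.

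Among the 6 called probe sets, leaving out 1 array at a time kept the differences between 0.51 and 0.59 for Rgs1 and between -0.74 and -0.44 for the others. The sign of every called member was the same in all alternatives run. Leaving out unstimulated replicate 1 gave 0.51 for Rgs1 and -0.67 for Rgs14, and leaving out unstimulated replicate 2 gave 0.59 and -0.49.

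**Figure D5:**
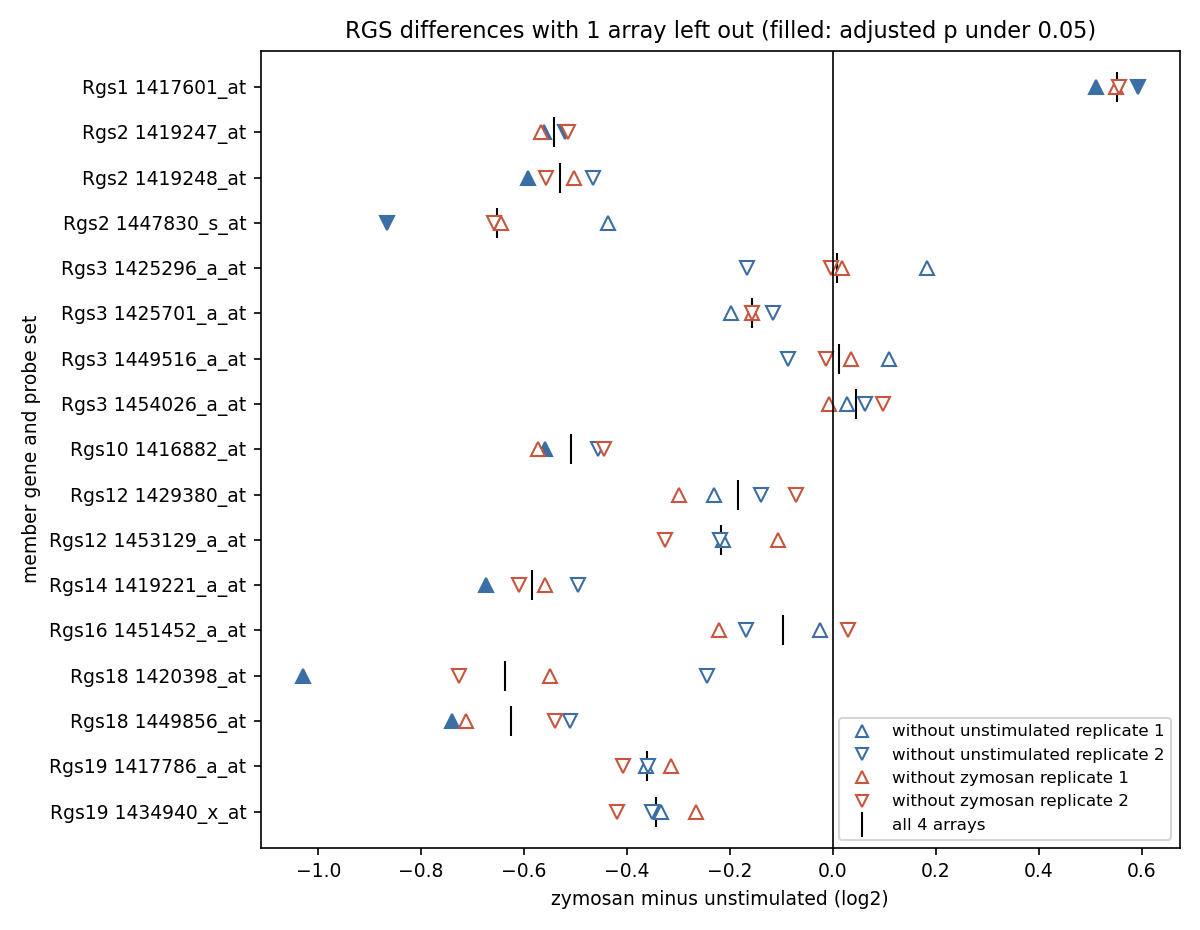
Difference of each tested member probe set (rows; x axis, log2) with all 4 arrays (black tick) and with 1 array left out (triangles), filled where the adjusted p was under 0.05. No triangle is filled when a zymosan array is left out (red), while the called probe sets keep their side of 0.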

How the data were processed

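Each array of the Mouse430_2 chip has 1 value per probe set. The deposited log2 values were made with RMA, which the submitters' processing notes name, and its version is not given in the sources used here. Scan day, operator and project came from the scanner settings files.

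Of 45037 probe sets other than controls, 27571 reached the 40th percentile of the array (4.36 to 4.39) on at least 2 of the 4 arrays. Differences are zymosan minus unstimulated (2 arrays each), fitted with lmFit and eBayes in limma 3.58.1 (R 4.3.3), 2-sided, with Benjamini-Hochberg adjustment over all tested probe sets and a threshold of 0.05. The code was tested on simulated data. RMA yields a number for absent transcripts too, and the number of arrays limits precision. The filter, normalization, variance prior, unit of the fit and each array were varied, and, chosen after seeing the data, the scan day as a random block (correlation 0.54 from pooled variances). That correlation sets the variance of the same-day zymosan pair against that of the unstimulated pair, so day and group cannot be told apart in it.

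The members, lists and tests were chosen with earlier results of these data known. Genes named in the lists are the up to 4 of smallest p in each, read at the probe set of highest mean. Markers of 8 cell types were read. Only 1 of 4 T and NK, 1 of 5 mast cell and 2 of 3 erythroid markers with a probe set passed the filter. Of those tested, 0 were called. Of 3 tested B cell markers 1 fell, and of 3 tested dendritic cell markers 1 fell, where 5.64% of all genes were called lower.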

Additional observations from a re-analysis of the deposited data

How the results depend on the processing

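All called members kept their direction in every alternative run, but no member call remained when either zymosan array was left out. The difference of Rgs1 was then 0.549 without zymosan replicate 1 and 0.555 without zymosan replicate 2, against 0.552 with all arrays. Calls over all probe sets were fewer then too. Leaving out each array in turn gave 0 to 1 member probe sets higher and 0 to 6 lower, 0 to 1 member genes higher and 0 to 4 lower, and 231 to 2531 of all probe sets higher and 157 to 2280 lower. Without either zymosan array, the lone one is assumed to vary like the rest. The spread within groups then comes from the unstimulated pair alone, scanned 16 days apart. Without either unstimulated array it comes from the zymosan pair alone, scanned on 1 day. Over all tested probe sets, the SD of the differences was 0.292 within the unstimulated pair and 0.198 within the zymosan pair. With the scan day as a random block limma called 0 members, and 741 of all probe sets higher and 647 lower. The lists together went from 3 genes higher to 6 with the 60th percentile filter and with 1 probe set a gene, to 1 with the day block and to 0 to 7 without 1 array. Their 12 lower went to 7 with no filter, 2 with the day block and 0 to 14 without 1 array. Alpha subunits had 2 higher with the 60th percentile filter, the intensity trend and 1 probe set a gene, 0 lower with no filter and with the day block, and 0 to 2 either way without 1 array. Beta and gamma subunits had 1 lower with the 60th percentile filter, quantile normalization, the intensity trend and 1 probe set a gene. Exchange and GoLoco modulators had 0 lower with no filter, with the day block and without any 1 array, and 1 with median centring. Kinases and arrestins had 2 higher with the 60th percentile filter and 1 probe set a gene, 2 lower with that filter and the trend, 0 lower with the day block, and 0 to 2 either way without 1 array. Effectors had 0 either way with the day block and 0 to 2 either way without 1 array. Gi-coupled receptors had 0 higher and 2 lower with the day block, and 0 to 2 higher and 0 to 8 lower without 1 array. The sign turned at 4 uncalled probe sets. Rgs3 1425296_a_at gave -0.0058 with quantile normalization and -0.17 to 0.18 without 1 array, 1449516_a_at -0.086 to 0.11, 1454026_a_at -0.0069 to 0.10, and Rgs16 1451452_a_at -0.22 to 0.029. The cause of these changes was not tested. The planned block by duplicateCorrelation gave no estimate for these 4 arrays in 2 groups, so the correlation from pooled variances took its place. No paired analysis was possible because the labels give the groups no shared replicate numbers.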

Other observations

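Rgs2, Rgs13, Rgs1, Rgs21 and Rgs18 are 5 consecutive protein-coding genes of chromosome 1 in the RefSeq table of GRCm38.p6, an order looked up after the values were seen. In that run, read at the probe set of highest mean, Rgs2 fell and Rgs1 rose, while Rgs18 differed by -0.64 and did not pass (limma adjusted p = 0.160), though its other probe set fell. Rgs13 read 2.68 to 2.81, below the filter level, and Rgs21 has no value here. Of the genes on either side, Uchl5, a deubiquitinating enzyme next to Rgs2, rose by 0.50 (SE 0.11, limma adjusted p = 0.0368). Beyond it Ro60, an RNA-binding protein, differed by 0.00, and on the other side Pla2g4a, a cytosolic phospholipase A2, by 0.27 (adjusted p = 0.203). Brinp3, next to Rgs18, lay below the filter level.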
